A study of Mus musculus with 10 samples.

Results

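The insulin-like growth factor (IGF) system was followed in RNA-seq libraries of mouse intestinal organoids through 10 genes chosen by name: the ligand genes Igf1 and Igf2, the receptor genes Igf1r and Igf2r, and the binding protein genes Igfbp2, Igfbp3, Igfbp4, Igfbp5, Igfbp6 and Igfbp7. These are 10 of 47069 genes in the table of read counts. All 10 passed the filter on low counts and were among the 16179 genes tested.

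There were 10 libraries in 5 groups of 2, all from organoids of C57BL/6 mice cultured for 50 days in Matrigel with Noggin, EGF and R-spondin 1. Per the study's methods the mice carried Lgr5-EGFP-CreERT2, a Cre recombinase that tamoxifen activates in cells using the Lgr5 promoter, and Ppp2r1a flox/flox, with loxP sites around exons 5 to 6 of the gene for the PP2A scaffold subunit. This genotype is shared by every group, controls included. The control received saline, the DMBA group the carcinogen dimethylbenzanthracene (labelled Long), and TAM short and TAM long received tamoxifen, labelled as dosage-sensitive and as short or long. The DMBA+TAM group received both agents. The labels do not give the doses, what short and long stand for, or whether the 2 libraries of a group came from separate mice or cultures, so the p-values measure only the spread between these libraries.

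IGF1 and IGF2 are secreted peptides that drive growth and survival by binding the IGF1 receptor, a tyrosine kinase that signals through IRS adaptors, PI3K and AKT. The IGF2 receptor carries no kinase and takes IGF2 to the lysosome for degradation. IGF-binding proteins hold the ligands outside the cell, which prolongs their life and withholds them from the receptor, and proteases that cleave a binding protein set the ligand free. In the gut wall, Igf1 and several binding proteins are known mainly from mesenchymal cells, which lie beside the epithelium that carries the receptor.

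The libraries differed in more than treatment. Total counts lay between 8828247 and 10923673 in the 8 libraries of the other groups and were 1592366 and 1915270 in DMBA+TAM, so that 3 counts equal 1.58 and 1.32 normalized CPM there (counts per 1000000 after TMM scaling) against 0.258 to 0.378 elsewhere. The summed level of 10 epithelial markers was 13381 to 22857 normalized CPM in the other 8 libraries and 33.2 and 22.4 in DMBA+TAM, where 6 and 7 of the 10 had 3 counts or fewer, Epcam among them. In DMBA+TAM the organoid label was thus not borne out by its defining markers. The sum of 10 fibroblast markers was 687 to 2415 elsewhere and 32680 and 33502 there, and the sum of 8 macrophage markers was 153 to 247 elsewhere and 4747 and 4335 there. The letter S stands in the library titles of control and TAM short, and the letter L in those of DMBA and TAM long. Both tamoxifen groups are titled DSS and DMBA+TAM is titled Lgr5, and the labels explain none of these titles. Colon markers summed to 202 to 311 in the S libraries and 2845 to 12108 in the L libraries, while small intestinal markers summed to 20735 to 41488 and 459 to 1096. DMBA or TAM long against control is therefore also L against S. The treatment and this difference in gut segment markers, which no label explains, cannot be told apart. Ppp2r1a was at 123 and 129 normalized CPM in control, 130.3 and 147 in TAM short, 169 and 157 in TAM long, 167 and 152 in DMBA, and 129 and 133 in DMBA+TAM. Since these counts cover all exons, they do not check the deletion of exons 5 to 6, and groups are named as labelled.

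The binding protein genes lie in several loci. Igfbp2 (chr1:72824503-72852474, plus strand, GRCm38) and Igfbp5 (chr1:72857932-72874884, minus strand) are neighbours that end 5457 bp apart, and Igfbp3 (chr11:7206086-7213923, minus strand) ends 3539 bp from Igfbp1. Igfbp4 is at chr11:99041244-99054392 (plus), Igfbp6 at chr15:102144362-102149511 (plus) and Igfbp7 at chr5:77349240-77408041 (minus). Of the ligands, Igf1 is at chr10:87858265-87937042 (plus) and Igf2 at chr7:142650766-142666816 (minus). Igf1r is at chr7:67952859-68226780 (plus) and Igf2r at chr17:12682406-12769664 (minus). Igfbp7 shares 85 bp of exon with Polr2b on the opposite strand and Igf2 shares 98 bp with its antisense transcript Igf2os, and the strand setting of the counting is not given in the sources used here. In the GENCODE M21 annotation Igf2 also shares 3596 bp of exon on its own strand with the gene Gm49394, which the table does not list.

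Promoters are shown for the 3 genes with the highest levels in DMBA+TAM, since these move together across the libraries, and for Igfbp2, which lies beside Igfbp5 and moves differently. Each is the 250 bases before the RefSeq start (GRCm38.p6), read in the direction of the gene, with matches to 4 motifs in capitals. The windows are chr1:72874866-72875115 (minus strand) for Igfbp5, chr11:99040994-99041243 (plus) for Igfbp4, chr5:77408046-77408295 (minus) for Igfbp7 and chr1:72824230-72824479 (plus) for Igfbp2.
Igfbp5: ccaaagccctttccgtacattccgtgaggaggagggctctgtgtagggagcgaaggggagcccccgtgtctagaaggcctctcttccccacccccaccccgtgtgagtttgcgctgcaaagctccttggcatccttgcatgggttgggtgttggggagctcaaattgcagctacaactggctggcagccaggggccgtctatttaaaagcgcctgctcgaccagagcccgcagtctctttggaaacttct
Igfbp4: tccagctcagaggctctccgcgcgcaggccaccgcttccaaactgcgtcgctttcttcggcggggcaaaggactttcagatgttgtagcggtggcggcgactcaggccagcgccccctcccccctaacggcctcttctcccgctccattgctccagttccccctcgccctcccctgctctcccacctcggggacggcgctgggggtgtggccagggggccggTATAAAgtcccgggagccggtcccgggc
Igfbp7: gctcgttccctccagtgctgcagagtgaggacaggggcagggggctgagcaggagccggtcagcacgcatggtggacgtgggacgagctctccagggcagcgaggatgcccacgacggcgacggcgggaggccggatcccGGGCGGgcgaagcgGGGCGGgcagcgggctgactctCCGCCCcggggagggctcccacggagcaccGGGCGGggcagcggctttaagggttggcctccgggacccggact
Igfbp2: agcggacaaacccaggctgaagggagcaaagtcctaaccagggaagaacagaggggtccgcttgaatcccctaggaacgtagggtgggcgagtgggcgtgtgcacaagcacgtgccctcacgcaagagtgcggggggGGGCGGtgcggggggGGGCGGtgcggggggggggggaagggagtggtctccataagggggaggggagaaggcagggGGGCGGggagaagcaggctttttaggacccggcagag

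The motifs were searched on both strands: the TATA box TATAAA, the CCAAT box CCAAT, the GC box GGGCGG and the E2 box CACCTG. Of 32851 mouse promoter windows of this length, 12.4% held TATAAA, 33.8% CCAAT, 32.7% GGGCGG and 17.2% CACCTG. The Igfbp4 window held TATAAA 28 bases before the start, the Igfbp7 window held 4 GC boxes, of which 1 is on the minus strand, and the Igfbp2 window held 3. None of the 4 motifs was found in the Igfbp5 window, and no matches overlapped. GC content was 58.8% for Igfbp5, 69.2% for Igfbp4, 74.0% for Igfbp7 and 67.2% for Igfbp2.

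In DMBA+TAM, Igf1, Igf1r and Igfbp3 to Igfbp7 stood above every other library, and 4 of them (Igfbp4, Igfbp5, Igfbp6 and Igfbp7) were 29.6-fold to 48.1-fold above control. Against control, edgeR's quasi-likelihood test called 7 of the 10 genes higher and none lower, beside 64.3% of all tested genes called (29.0% higher and 35.3% lower). Both libraries lay above all 8 others for 7 of the 10 genes and for 24.7% of all genes. The same 7 were called higher than each of the 4 other groups, against 18.4% of all genes. On the log2 scale the median change of these 10 genes against control was 3.61, and that of all genes -0.17. With library size as the only scaling, 38.5% of all genes were higher and 23.3% lower, and 8 of the 10 genes were higher, Igf2r being added. That scaling moved the median of all genes by 0.49 in this comparison, by 0.30 where DMBA and by 0.32 where TAM long was set against control. Epithelial, fibroblast and macrophage markers moved with this result as given above, and their part in it was not tested. In such bulk RNA, more cells of a type and more RNA per cell cannot be told apart.

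**Figure D1:**
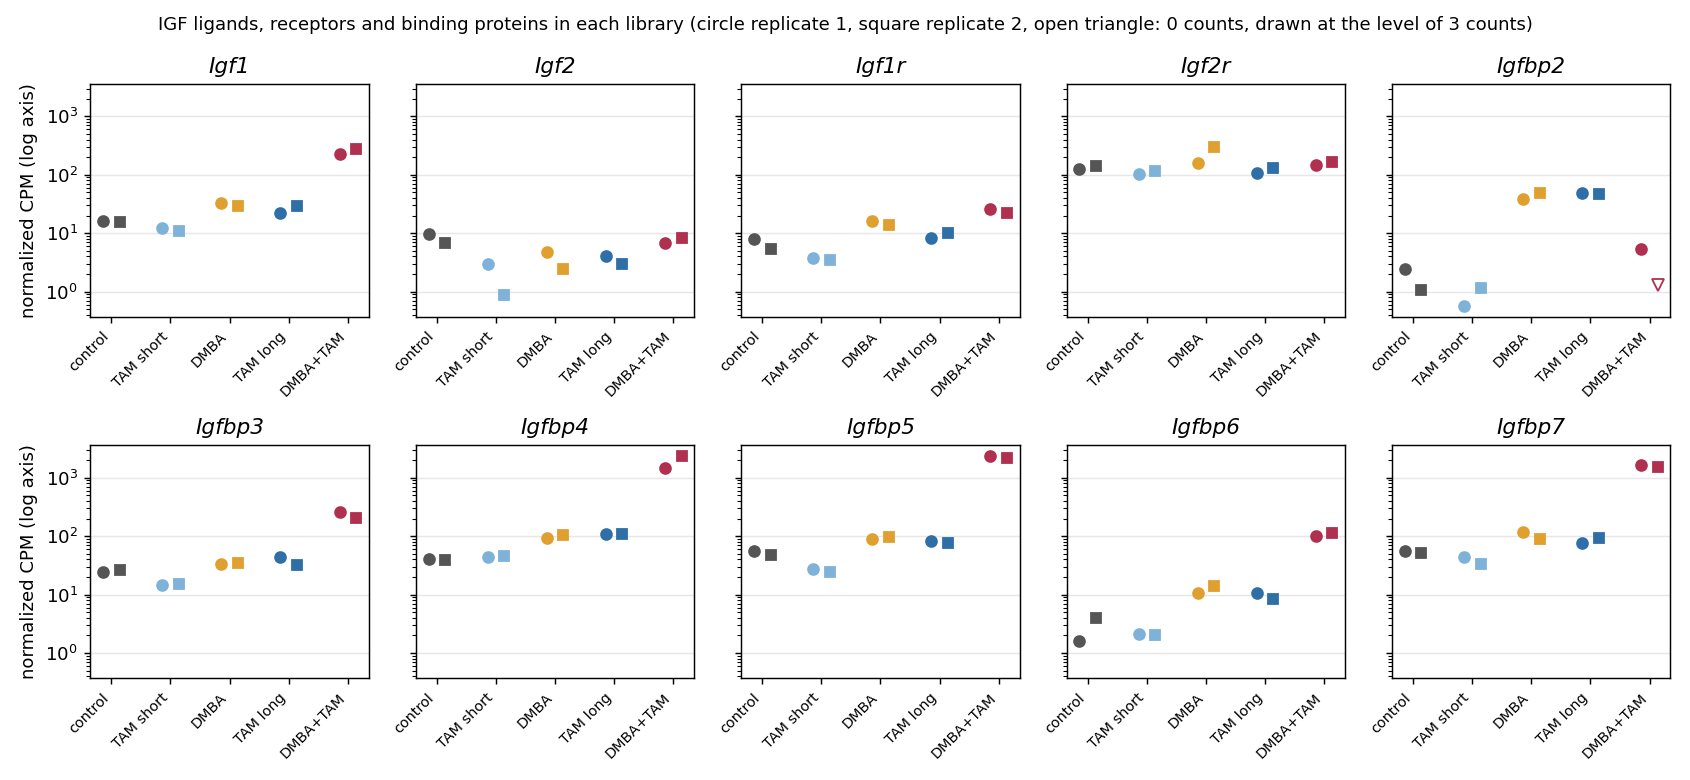
Level of each of the 10 genes in each library, as normalized CPM on a log axis shared by all panels, with both libraries of a group shown as a circle and a square. The DMBA+TAM libraries (red) sit highest for 7 genes, while Igfbp2 is high in DMBA and TAM long alone; the open triangle marks a library with 0 counts, drawn at the level of 3 counts.

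Most of these 7 genes also stood above control in the DMBA and TAM long groups, by less. DMBA against control had 9 of the 10 genes called higher and none lower, beside 47.8% of all genes called (24.5% higher and 23.3% lower). TAM long against control had 7 called higher and none lower, beside 46.0% (23.2% higher and 22.8% lower). Leaving out 1 library lowered the 7 to between 3 and 6, with 3 left without control replicate 2. The medians of the 10 genes were 0.96 and 0.64 on the log2 scale, against 0.07 and 0.05 for all genes. With a minimum change of 1 on the log2 scale, 4 of the 10 genes were called for DMBA and 3 for TAM long, beside 27.2% and 26.1% of all genes. All 4 libraries of DMBA and TAM long lay above all 4 of control and TAM short for 8 of the 10 genes, the exceptions being Igf2 and Igf2r, and for 24.2% of all genes. With library size as the only scaling, all genes split into 34.3% higher and 13.96% lower for DMBA and 34.1% and 13.3% for TAM long, with 9 and 8 of the 10 genes higher. Both comparisons use the same control libraries. Colon markers rose with the genes as stated, and 6 smooth muscle markers summed to 7145 to 12810 normalized CPM in the L libraries, 1206 to 2275 in the S libraries and 1461 and 1602 in DMBA+TAM. Of 10 fibroblast markers 8 were higher and 1 lower in DMBA and 5 higher and 2 lower in TAM long, and of 4 enteric glia markers, summing to 20.8 to 39.2 in the L libraries, 2.77 to 8.12 in the S libraries and 56.9 and 48.8 in DMBA+TAM, 3 were higher in each. Of 6 lymphocyte markers, summing to 25.0 to 157 in the other 8 libraries and 203 and 191 in DMBA+TAM (where 5 of the 6 had 3 counts or fewer), 2 were lower in each. The part of these markers was not tested. Between TAM long and DMBA, which are both L libraries, edgeR called 0 of the 10 genes beside 2.70% of all genes (1.24% higher and 1.46% lower). There 2 genes had an unadjusted p under 0.05 and DESeq2 called 1, Igf2r.

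TAM short and control are both S libraries, and TAM short had the lowest mean level for 9 of the 10 genes, Igfbp4 being lowest in control. The 2 groups also differed in small intestinal markers, with 2 of 10 called higher and 6 lower in TAM short. Lct, the lactase gene, was at 1277 and 1552 normalized CPM in control and 3.04 and 0.881 in TAM short, and Fabp6, a bile acid binding protein gene of the ileum, at 2.82 and 0.24 and at 7830.5 and 8946. The treatment and this difference in small intestinal markers can thus not be told apart here either. Against control 3 of the 10 genes were called lower and none higher, beside 14.3% of all genes called (6.52% higher and 7.80% lower). These were Igf2, Igfbp3 and Igfbp5. With library size as the only scaling the same count of 3 was called lower, beside 7.86% of all genes higher and 5.54% lower. The median of the 10 genes was -0.61 and that of all genes -0.04. Fibroblast markers summed to 1497 and 1358 normalized CPM in control and to 839.5 and 687 in TAM short, with 5 of the 10 called lower and 1 higher. Lymphocyte markers summed to 37.6 and 86.2 in control and to 150 and 157 in TAM short, with 1 of 6 called higher and none lower. Macrophage markers summed to 153 and 172 and to 247 and 208, with 2 of 8 called higher and none lower. The part of these markers in the result was not tested. Leaving out control replicate 1, control replicate 2 or TAM short replicate 2 left 1 of the 3 calls, that of Igfbp5.

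**Figure D2:**
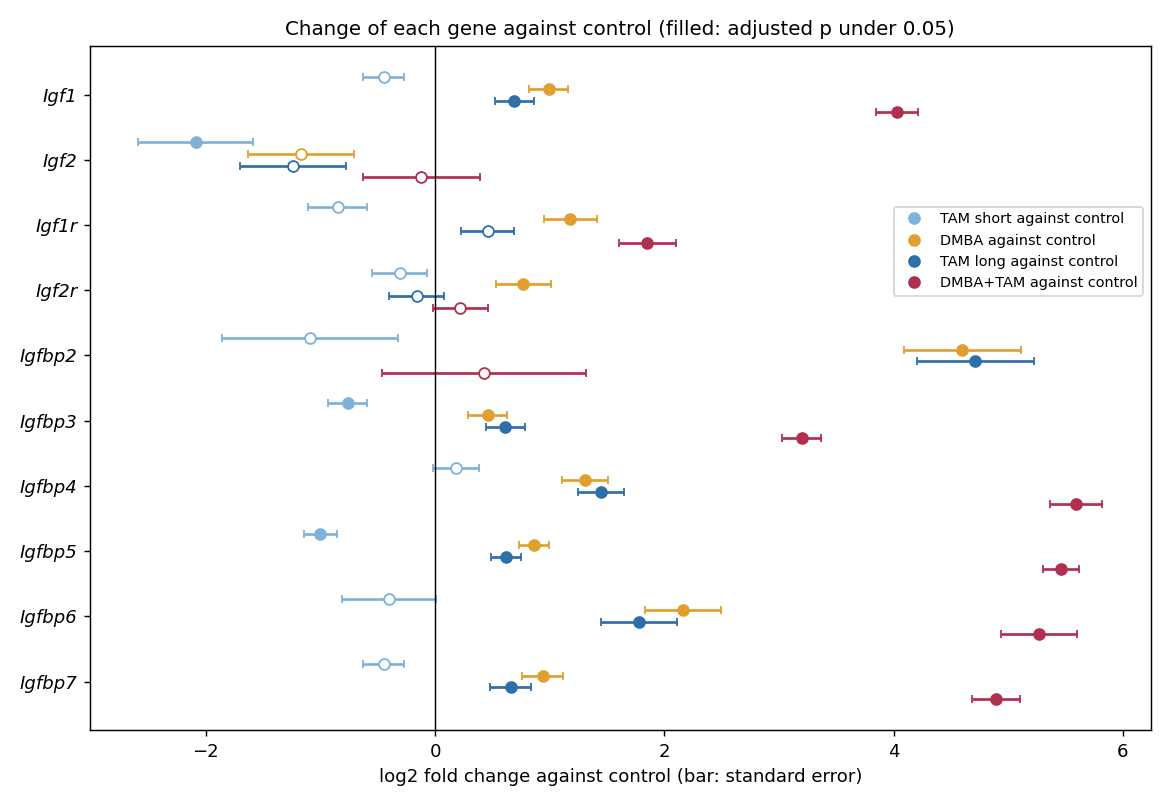
Log2 fold change of each gene against control in the 4 other groups, with standard errors of the edgeR fit as bars and filled points for an adjusted p under 0.05. For Igfbp4 to Igfbp7 the DMBA+TAM points lie between 4.89 and 5.59, and for Igfbp2 the points of DMBA (4.60) and TAM long (4.71) stand apart from the others.

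Igf1 encodes the main growth-promoting ligand. It was at 16.1 and 15.3 normalized CPM in control, 12.2 and 10.7 in TAM short, 33.3 and 29.0 in DMBA, 21.9 and 28.6 in TAM long, and 231 and 282 in DMBA+TAM. The DMBA+TAM libraries did not overlap with any other group, and neither did control and TAM short with DMBA and TAM long. Against control, Igf1 rose by 4.03 ± 0.18 on the log2 scale in DMBA+TAM (SE, edgeR adjusted p = 5.44e-08), 16.3-fold. It rose by 0.99 ± 0.17 in DMBA (adjusted p = 0.000999) and by 0.69 ± 0.17 in TAM long (adjusted p = 0.00804). The TAM long call was lost without control replicate 2 (0.64, adjusted p = 0.0654) and without TAM long replicate 2 (0.48, adjusted p = 0.0841). TAM short stood at -0.45 ± 0.18 (adjusted p = 0.123).

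Igf2, the second ligand and a gene expressed mostly before birth, was low throughout. It had 87 and 56 counts in control, 26 and 7 in TAM short, 54 and 22 in DMBA, 47 and 30 in TAM long, and 13 and 19 in the shallower DMBA+TAM libraries. As normalized CPM these were 9.82 and 6.73, 2.93 and 0.881, 4.81 and 2.47, 4.05 and 2.94, and 6.85 and 8.35. Control and DMBA+TAM overlapped, and both lay above the other 6 libraries. In TAM short Igf2 fell by 2.09 ± 0.50 on the log2 scale against control (edgeR adjusted p = 0.0230). This call was lost without control replicate 1 (-1.79, adjusted p = 0.157), without control replicate 2 (-2.34, adjusted p = 0.0732) or without TAM short replicate 2 (-1.49, adjusted p = 0.165), and after thinning to equal depth (-1.58, adjusted p = 0.245), and the change was -3.21 without TAM short replicate 1. The change in DMBA was -1.17 ± 0.46 (adjusted p = 0.0618) and that in TAM long -1.24 ± 0.46 (adjusted p = 0.0513), neither called in this fit. Igf2 was called lower in DMBA with no filter on low counts (-1.18, adjusted p = 0.00346), with the replicate block (-1.20, 0.0228) and without DMBA replicate 1 (-1.77, 0.0312), and it was at -1.94 (0.0608) after thinning. In TAM long it was called lower with no filter (-1.26, 0.00171), with the block (-1.24, 0.0206) and in the fit of only the compared groups (-1.23, 0.0123). DMBA+TAM stood at -0.12 ± 0.51 (adjusted p = 0.859). The ratio of Igf1 to Igf2 counts was 1.64 and 2.27 in control, 4.15 to 12.1 in the 6 libraries treated with DMBA or tamoxifen alone, and 33.7 in both DMBA+TAM libraries.

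Igf1r encodes the receptor tyrosine kinase. Its level was 7.90 and 5.41 normalized CPM in control, 3.83 and 3.53 in TAM short, 16.4 and 13.8 in DMBA, 8.35 and 10.004 in TAM long, and 26.3 and 22.0 in DMBA+TAM. No group overlapped with another in these 10 libraries. Igf1r rose by 1.85 ± 0.25 on the log2 scale in DMBA+TAM against control (edgeR adjusted p = 9.74e-05), a smaller change than that of Igf1, and by 1.18 ± 0.23 in DMBA (adjusted p = 0.00218). TAM long stood at 0.46 ± 0.23 (adjusted p = 0.133) and TAM short at -0.85 ± 0.26 (adjusted p = 0.0533). Over the alternatives TAM long ranged from 0.21 to 1.05 and TAM short from -1.1 to -0.37, and each was called under some alternative. The step from DMBA to DMBA+TAM was 0.67 ± 0.23 (adjusted p = 0.0325), and it was no longer called without DMBA replicate 2 (adjusted p = 0.132) or without either DMBA+TAM library (adjusted p = 0.166 and 0.0529). It was also lost with no filter, with only the compared groups and after thinning, and the DMBA call was lost after thinning (adjusted p = 0.0528). The listed gene model ends 6888 bp before the GENCODE M21 end, so reads from the last part of the transcript may not be in these counts.

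Igf2r, the clearance receptor, was the most even of the genes. It was at 127 and 140.0 normalized CPM in control, 102 and 115 in TAM short, 161 and 296 in DMBA, 107 and 132 in TAM long, and 147 and 163 in DMBA+TAM. Groups other than DMBA lay close to each other, and the DMBA libraries differed more from each other than those of any other group. The only call against control was in DMBA, where Igf2r was higher by 0.77 ± 0.24 on the log2 scale (edgeR adjusted p = 0.0240). It rested on DMBA replicate 2, without which the change was 0.26 (adjusted p = 0.200), and was also lost without control replicate 1 (adjusted p = 0.137) or control replicate 2 (adjusted p = 0.0893) and with only the compared groups fitted (adjusted p = 0.0721). DMBA+TAM stood at 0.22 ± 0.24 against control (adjusted p = 0.463). With library size as the only scaling this change was 0.71 (adjusted p = 0.0129), while the median of all genes moved by 0.49. Counts of Igf2r were 9.84 to 32.5 times those of Igf1r in the other 8 libraries and 5.60 and 7.42 times in DMBA+TAM.

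Igfbp2, which binds IGF2 more tightly than IGF1, had a pattern of its own. It had 22 and 9 counts in control, 5 and 9 in TAM short, 435 and 438 in DMBA, 562 and 474 in TAM long, and 10 and 0 in DMBA+TAM. As normalized CPM these were 2.48 and 1.08, 0.564 and 1.13, 38.8 and 49.1, 48.4 and 46.5, and 5.27 and 0, where 0 counts allow up to 1.32. The 4 L libraries lay far above all others, as did their smooth muscle marker sums, whose part was not tested. Igfbp2 rose by 4.60 ± 0.51 on the log2 scale in DMBA (24.2-fold, edgeR adjusted p = 7.66e-05) and by 4.71 ± 0.51 in TAM long (26.2-fold, adjusted p = 6.76e-05) against control. It was lower in DMBA+TAM than in DMBA (-4.17 ± 0.63, adjusted p = 0.000325) and than in TAM long (-4.28 ± 0.62, adjusted p = 0.000248). No other gene of the 10 was called lower in these comparisons in this fit, though with the replicate block Igf2r was called lower than in DMBA. The changes of Igfbp2 were -3.06 and -3.17 without DMBA+TAM replicate 2, and -11.57 and -11.68 without replicate 1, where 0 counts are left and the fitted value is no bound. Without control replicate 1 the rises in DMBA and TAM long were 5.31 and 5.43. Its change in DMBA+TAM against control could not be placed: it was 0.43 ± 0.89 (adjusted p = 0.696), -0.06 without control replicate 2 (adjusted p = 0.972) and -6.99 without DMBA+TAM replicate 1 (adjusted p = 0.0395). The neighbouring Igfbp5 had 1.66 to 2.33 times the counts of Igfbp2 in the L libraries, 21.6 to 48.2 times in the S libraries and 455 times in DMBA+TAM replicate 1.

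Igfbp3, the main carrier of IGFs in blood, was at 23.9 and 26.2 normalized CPM in control, 14.5 and 15.1 in TAM short, 33.6 and 35.4 in DMBA, 44.1 and 32.3 in TAM long, and 254 and 205 in DMBA+TAM. TAM short lay below all other libraries and DMBA+TAM above them. The rise in DMBA+TAM was 3.20 ± 0.17 on the log2 scale against control (9.16-fold, edgeR adjusted p = 1.99e-07). The other changes were small, with 0.46 ± 0.17 in DMBA (adjusted p = 0.0440), 0.61 ± 0.17 in TAM long (adjusted p = 0.0136) and -0.76 ± 0.17 in TAM short (adjusted p = 0.0188). Of these calls, DMBA and TAM short were lost whichever library was left out (adjusted p of 0.0934 to 0.213 and of 0.0730 to 0.128). TAM long was lost without either control library (adjusted p = 0.101 and 0.0555) or without TAM long replicate 1 (0.36, adjusted p = 0.139). Thinning ended the DMBA and TAM long calls, and DESeq2 that of DMBA (adjusted p = 0.0603).

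Igfbp4 encodes a binding protein that mostly restrains IGF action until the protease PAPP-A cleaves it, and it was far higher in DMBA+TAM than elsewhere. It was at 41.1 and 38.3 normalized CPM in control, 44.3 and 45.5 in TAM short, 92.2 and 105 in DMBA, 108 and 109 in TAM long, and 1483 and 2342 in DMBA+TAM. The DMBA+TAM libraries were far above the rest. In normalized CPM they differed from each other by more than the full range of all other libraries, but as a ratio they did not. Skeletal muscle markers (4.74 and 6843) and fat cell markers (3047 and 1319) also differed between these 2 libraries, and their part was not tested. Igfbp4 rose by 5.59 ± 0.23 on the log2 scale (48.1-fold, edgeR adjusted p = 3.90e-08) in DMBA+TAM, by 1.31 ± 0.20 in DMBA (adjusted p = 0.000501) and by 1.45 ± 0.20 in TAM long (adjusted p = 0.000296). TAM short stood at 0.18 ± 0.20 (adjusted p = 0.612).

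Igfbp5, which binds matrix as well as ligand, reached the highest count of the 10 genes in DMBA+TAM replicate 1. It was at 55.9 and 47.7 normalized CPM in control, 27.2 and 24.4 in TAM short, 90.2 and 98.1 in DMBA, 81.8 and 77.2 in TAM long, and 2395 and 2157 in DMBA+TAM. No group overlapped with another. Igfbp5 rose by 5.46 ± 0.16 on the log2 scale in DMBA+TAM (43.9-fold, edgeR adjusted p = 1.01e-08), by 0.86 ± 0.13 in DMBA (adjusted p = 0.000640) and by 0.62 ± 0.13 in TAM long (adjusted p = 0.00442), all against control. It fell by 1.00 on the log2 scale in TAM short (SE 0.14, adjusted p = 0.00140), the call of that comparison that held with each library left out, though not after thinning to equal depth (-0.60, adjusted p = 0.124). The TAM long call was lost without control replicate 2 (0.50, adjusted p = 0.0550).

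Igfbp6, the binding protein with the strongest preference for IGF2, was scarce outside DMBA+TAM. It had 14 and 33 counts in control, 19 and 16 in TAM short, 118 and 127 in DMBA, 123 and 85 in TAM long, and 194 and 254 in DMBA+TAM. As normalized CPM these were 1.58 and 3.97, 2.14 and 2.01, 10.5 and 14.2, 10.6 and 8.34, and 102 and 112. Control and TAM short overlapped, as did DMBA and TAM long, and the 3 tiers were apart. Igfbp6 rose by 5.27 ± 0.33 on the log2 scale in DMBA+TAM (38.7-fold, edgeR adjusted p = 5.09e-07), by 2.16 ± 0.33 in DMBA (adjusted p = 0.000559) and by 1.78 ± 0.33 in TAM long (adjusted p = 0.00191) against control. These changes were larger without control replicate 2, at 6.04, 2.94 and 2.56.

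Igfbp7, a more distant relative that binds IGFs weakly and is secreted by vessel and stromal cells, was at 55.7 and 51.8 normalized CPM in control, 44.9 and 34.0 in TAM short, 117 and 89.4 in DMBA, 76.0 and 93.9 in TAM long, and 1637 and 1546 in DMBA+TAM. DMBA and TAM long overlapped with each other and lay above the S libraries. Igfbp7 rose by 4.89 ± 0.21 on the log2 scale in DMBA+TAM (29.6-fold, edgeR adjusted p = 4.61e-08), by 0.94 ± 0.18 in DMBA (adjusted p = 0.00222) and by 0.66 ± 0.18 in TAM long (adjusted p = 0.0144) against control. The TAM long call was lost without control replicate 1 (adjusted p = 0.0611), control replicate 2 (adjusted p = 0.102) or TAM long replicate 2 (0.49, adjusted p = 0.118). Endothelial markers summed to 71.7 to 134 normalized CPM in the other 8 libraries and to 668 and 659.9 in DMBA+TAM, and their part in the change of Igfbp7 was not tested.

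Ordered by level, DMBA+TAM came first for Igf1, Igf1r and Igfbp3 to Igfbp7 and was called different from the next group for each of them. DMBA and TAM long were neighbours for all genes other than Igf2r, and in no such pair did the 2 groups differ by the test. Control and TAM short were at the bottom for 8 of the 10 genes and of these differed by the test for Igfbp3 and Igfbp5. TAM long was higher than TAM short for 8 of the 10 genes, beside 42.2% of all genes called (22.0% higher and 20.3% lower). TAM short was lower than DMBA for 9 of the 10 genes, beside 46.2% (21.8% higher and 24.5% lower), Igf2 being the exception.

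DMBA+TAM was also set against the groups with 1 agent. Against DMBA 7 genes were higher and 1 lower, beside 55.1% of all genes called (25.2% higher and 29.9% lower), and against TAM long again 7 were higher and 1 lower, beside 55.2% (25.3% higher and 29.9% lower). With library size as the only scaling, all genes split into 29.3% higher and 24.2% lower against DMBA and 28.7% and 24.3% against TAM long. Against TAM short 8 were higher, beside 63.1% (29.3% higher and 33.8% lower, or 37.1% and 23.3% with library size scaling), the 7 genes above and Igf2 (1.97 ± 0.58, edgeR adjusted p = 0.0132, but not called without TAM short replicate 2, at 1.35, without DMBA+TAM replicate 2, at 1.79, or after thinning, at 1.48). Igfbp5 differed most, by 4.60 ± 0.15 from DMBA, 4.84 ± 0.15 from TAM long and 6.46 ± 0.17 from TAM short on the log2 scale (adjusted p = 2.50e-08, 2.07e-08 and 6.78e-09).

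Whether the change with both agents differed from the sum of the single changes on the log2 scale was tested as the interaction of DMBA and TAM long. DMBA and TAM long are both L libraries and control is S, so L against S enters this sum through both single changes. An interaction of the agents and this difference between libraries cannot be told apart. It was called for 8 of the 10 genes, 7 higher and 1 lower than the sum, beside 48.2% of all genes (21.6% higher and 26.5% lower). The log2 differences were 3.98 ± 0.19 for Igfbp5 (edgeR adjusted p = 2.78e-07), 3.29 ± 0.26 for Igfbp7 (5.37e-06) and 2.83 ± 0.28 for Igfbp4 (2.28e-05). They were 2.35 ± 0.23 for Igf1 (2.42e-05), 2.13 ± 0.23 for Igfbp3 (5.05e-05), 2.29 ± 0.71 for Igf2 (0.0230) and 1.34 ± 0.44 for Igfbp6 (0.0305). Igfbp2 was the exception at -8.88 ± 0.79 (1.19e-05). Igf1r stood at 0.21 ± 0.33 (0.624) and Igf2r at -0.40 ± 0.34 (0.369). With TAM short in place of TAM long, Igf1r was called at 1.52 (0.00564), Igfbp2 was at -3.08 (0.0496), Igfbp6 at 3.52, Igf2 at 3.14, and Igf1, Igfbp3, Igfbp4, Igfbp5 and Igfbp7 at 3.49 to 5.60. Without DMBA+TAM replicate 1, where Igfbp2 is left with 0 counts, its fitted value was -16.25. The calls of Igf2 and Igfbp6 were lost under several single-library omissions: Igf2 without control replicate 1, TAM long replicate 2 or DMBA+TAM replicate 2 (1.98 to 2.15), and Igfbp6 without control replicate 2 (0.53), DMBA replicate 1, TAM long replicate 2 or either DMBA+TAM library.

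**Figure D3:**
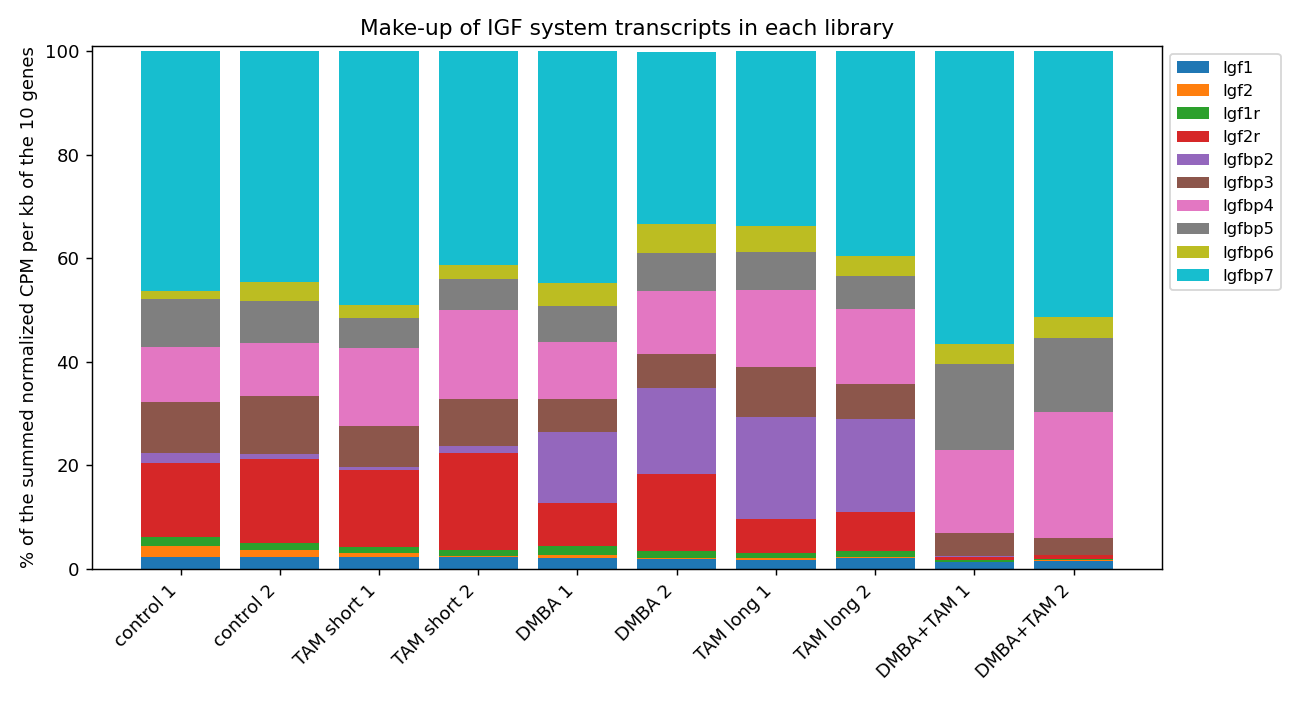
Share of each gene in the summed level of the 10 genes in each library, with normalized CPM per kb of listed gene length. Igfbp7 takes 33.2% to 56.7% in every library (19.5% to 40.0% by FPKM), Igfbp2 takes 13.7% to 19.7% in DMBA and TAM long and at most 1.90% elsewhere, and Igf2r shrinks to 0.689% and 0.731% in DMBA+TAM.

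Between genes, levels were compared per kb of the listed gene length. The order of the genes depends on this length, and by the mean of the authors' FPKM Igfbp7 was highest only in the DMBA group. Igfbp7 had the highest level per kb in every group, with 44.8 ± 2.32 in control (mean ± SD, n = 2) and 1326 ± 53.6 in DMBA+TAM. Igf2r followed in control at 15.0 ± 1.01, whereas in DMBA+TAM Igfbp4 (499 ± 159) and Igfbp5 (379 ± 28.0) followed and Igf2r was at 17.5 ± 1.24. The share of Igf2r in the summed level was thus 14.3% and 16.3% in control and 0.689% and 0.731% in DMBA+TAM, although its own level was not called different. Binding protein genes summed to 53.2 to 189 normalized CPM per kb in the other 8 libraries and to 2351 and 2444 in DMBA+TAM. Ligand genes summed to 1.70 to 5.75 and to 34.2 and 41.7. Binding protein transcripts exceeded ligand transcripts 18.2-fold to 42.8-fold elsewhere, with control the lowest at 18.2-fold and 21.3-fold, and 68.8-fold and 58.6-fold in DMBA+TAM. These values rest on the listed lengths: by the FPKM of the authors, a choice made after seeing the data, the ratio was 8.31 and 9.31 in control, 11.9 to 18.8 in the other 6 libraries and 27.7 and 26.6 in DMBA+TAM. The share of Igf2r was then 28.7% and 32.1% in control and 1.64% and 1.54% in DMBA+TAM. Of all counts, binding protein genes took 0.0110% to 0.0428% in the other libraries and 0.701% and 0.756% in DMBA+TAM.

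Levels were also set against the fibroblast markers of the same library, and the outcome depended on which markers were used. The collagen genes Col1a1, Col1a2 and Col3a1 made up 88.2% and 88.9% of the marker sum in DMBA+TAM and 52.9% to 72.3% in the other 8 libraries. Against control they rose 37.7-fold, 34.7-fold and 25.6-fold in DMBA+TAM, while of the other markers Thy1 rose 97.6-fold, Postn 16.1-fold, Pdgfrb 13.2-fold, Lum 11.2-fold, Dcn 9.07-fold and Pdgfra 4.54-fold, and Fbln1, at 171 normalized CPM in control, was at 131 there and was not called. Per 1000 counts of all 10 markers, Igfbp7 was at 50.1 and 46.2 in DMBA+TAM, within the 37.2 to 53.5 of the other libraries. Per 1000 counts of the 7 markers other than these collagens, a choice made after seeing the data, Igfbp7 was at 426 and 414 in DMBA+TAM and 106 to 152 elsewhere.

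Other genes moved with this choice too. Per 1000 counts of all 10 markers, Igfbp4 was at 45.4 and 69.9 in DMBA+TAM and 27.4 to 70.8 elsewhere, and without the collagens at 386 and 627 against 82.0 to 178. Igfbp6 was at 3.13 and 3.33 against 1.06 to 6.96, and without the collagens at 26.6 and 29.9 against 3.43 to 24.1. Igf1 was lower than in any other library with all 10 markers, at 7.06 and 8.41 against 10.8 to 15.6, and higher without the collagens, at 60.04 and 75.4 against 30.6 to 49.2. Igfbp3 was likewise lower with all 10, at 7.79 and 6.13 against 13.9 to 29.0, and overlapped without the collagens, at 66.2 and 55.0 against 37.3 to 61.5. With either set of markers Igfbp5 was higher in DMBA+TAM than in any other library (73.3 and 64.4 against 32.4 to 53.8 with all 10). Igf1r and Igf2r were lower with either set, at 0.806 and 0.656 against 3.98 to 6.79 and at 4.51 and 4.87 against 66.8 to 167 with all 10. These ratios are descriptions with no test, and other markers that rose in DMBA+TAM (macrophages, endothelium, and fat cells at 3047 and 1319 against 44.0 to 195 normalized CPM elsewhere) are not in their denominator.

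**Figure D4:**
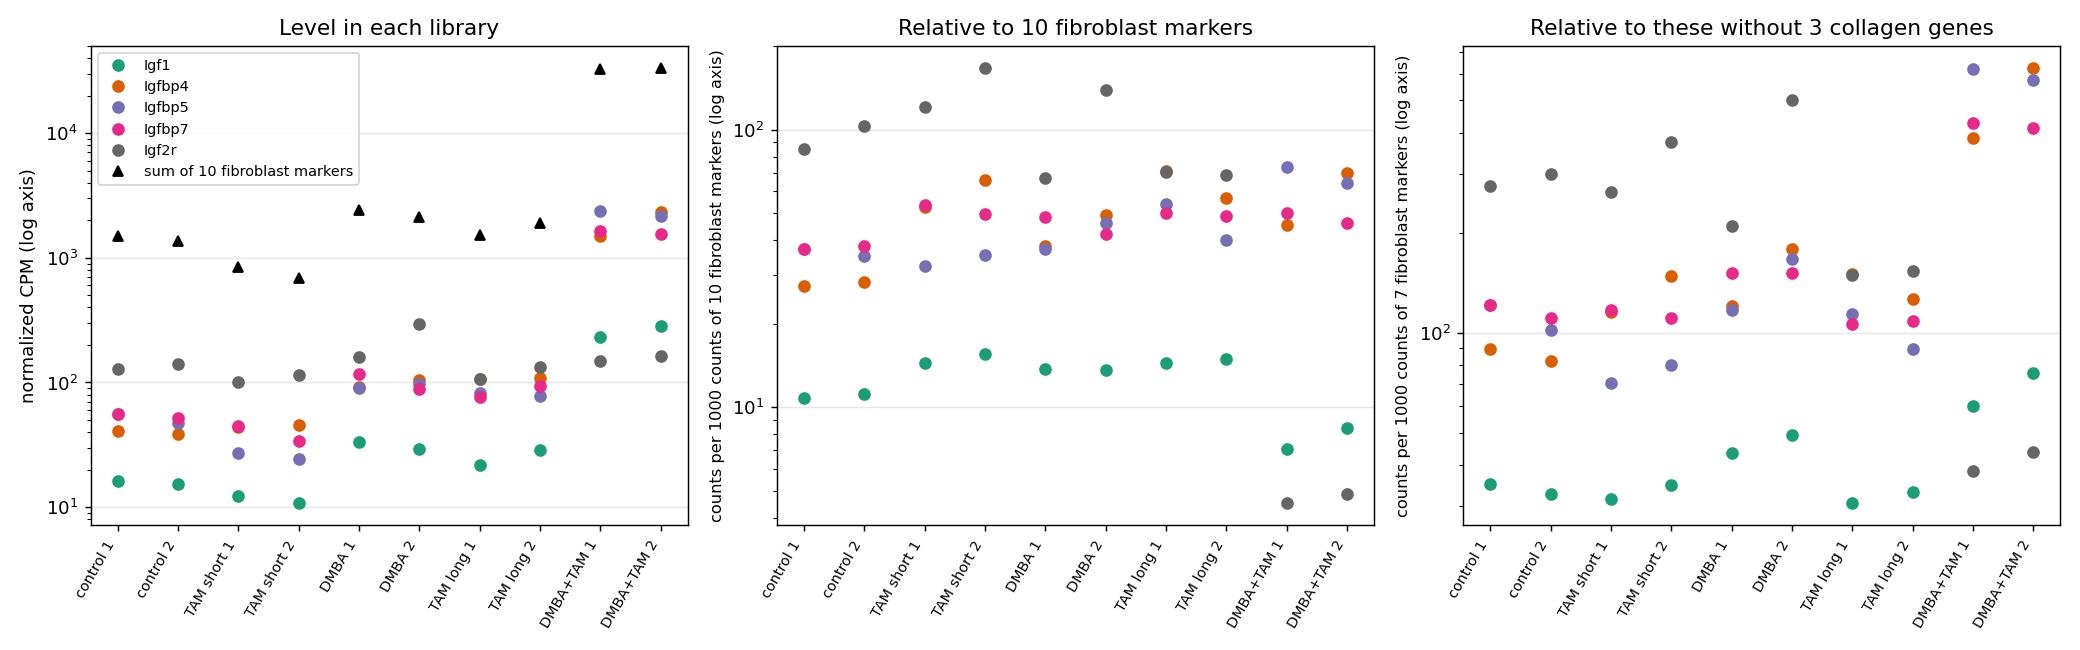
Left, normalized CPM of 5 genes and of the sum of 10 fibroblast markers in each library; middle, counts of the same genes per 1000 counts of these markers; right, the same per 1000 counts of the 7 markers left without 3 collagen genes (all log axes). Igfbp7 stays between 37.2 and 53.5 in the middle, but on the right rises from at most 152 to 426 and 414 in DMBA+TAM, and Igf2r is lowest in DMBA+TAM in both.

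Genes that process the binding proteins were read from a list that held the proteases Pappa, Pappa2, Htra1 and Adam12 and the stanniocalcins Stc1 and Stc2, which inhibit pappalysins. In DMBA+TAM against control 4 of 6 were higher and none lower, a share near the 64.3% of all genes called. Adam12 rose by 6.72 ± 0.30 on the log2 scale (edgeR adjusted p = 6.44e-08), from 1.81 and 1.44 to 174 and 173 normalized CPM, Htra1 by 2.39 ± 0.15 (4.68e-07), Pappa by 1.99 ± 0.50 (0.00598) and Stc1 by 1.51 ± 0.45 (0.0150). In DMBA against control 3 of 6 were higher and none lower, near the 47.8% of all genes called: Stc2 by 2.32 ± 0.23 (3.49e-05), Pappa2 by 2.30 ± 0.81 (0.0436) and Htra1 by 1.02 ± 0.14 (0.000329). TAM long had 2 called higher beside 46.0% of all genes called, Stc2 (1.51 ± 0.23, 0.000523) and Htra1 (0.95 ± 0.14, 0.000526). The medians of the list were 1.83, 0.89 and 0.87 in these comparisons, against -0.17, 0.07 and 0.05 for all genes. Stc2 stood at 0.09 ± 0.31 in DMBA+TAM (0.830).

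Of 14 genes listed for signalling downstream of the receptor, 13 were tested, and Irs4 had too few counts. The list does not sort genes by whether they pass on or restrain the signal, so its counts give no direction of signalling. In DMBA+TAM against control 7 were higher and 2 lower, a share near the 64.3% of all genes called, with a median of 0.35 against -0.17 for all genes. The adaptors Irs1 and Grb10 rose by 3.78 ± 0.36 (edgeR adjusted p = 8.84e-06) and 3.76 ± 0.23 (3.65e-07) on the log2 scale, Grb14 by 2.22 ± 0.28 (6.23e-05), and the phosphatase gene Ptpn1 by 2.04 ± 0.15 (1.33e-06). The kinase genes Akt2 and Akt1 rose by 1.02 ± 0.13 and 0.84 ± 0.11 (8.11e-05 and 0.000111). Shc1 rose by 0.35 ± 0.10 (0.0131), and by 0.84 (0.00026) with library size scaling. The FOXO factor genes, whose products AKT holds out of the nucleus, were lower, Foxo1 at -0.61 ± 0.16 (0.00687) and Foxo3 at -0.40 ± 0.11 (0.0111), but with library size scaling Foxo1 was at -0.12 and Foxo3 at 0.10, neither called. In DMBA 5 were higher and 2 lower, beside 47.8% of all genes called, among them Irs1 (1.59 ± 0.35, 0.00478) and Foxo3 (0.92 ± 0.10, 8.93e-05), and in TAM long 5 were higher and 2 lower, beside 46.0%. With library size scaling the counts were 9 higher for DMBA+TAM, 9 for DMBA, 8 for TAM long and 2 for TAM short, with none lower. In TAM short, where 14.3% of all genes were called, 2 were higher, Ptpn1 (0.55 ± 0.14, 0.0323) and Foxo3 (0.46 ± 0.10, 0.0179), and 2 lower, Grb10 (-1.04 ± 0.25, 0.0209) and Irs2 (-0.67 ± 0.18, 0.0345), which with that scaling were at -0.95 (0.0549) and -0.59 (0.0864).

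**Figure D5:**
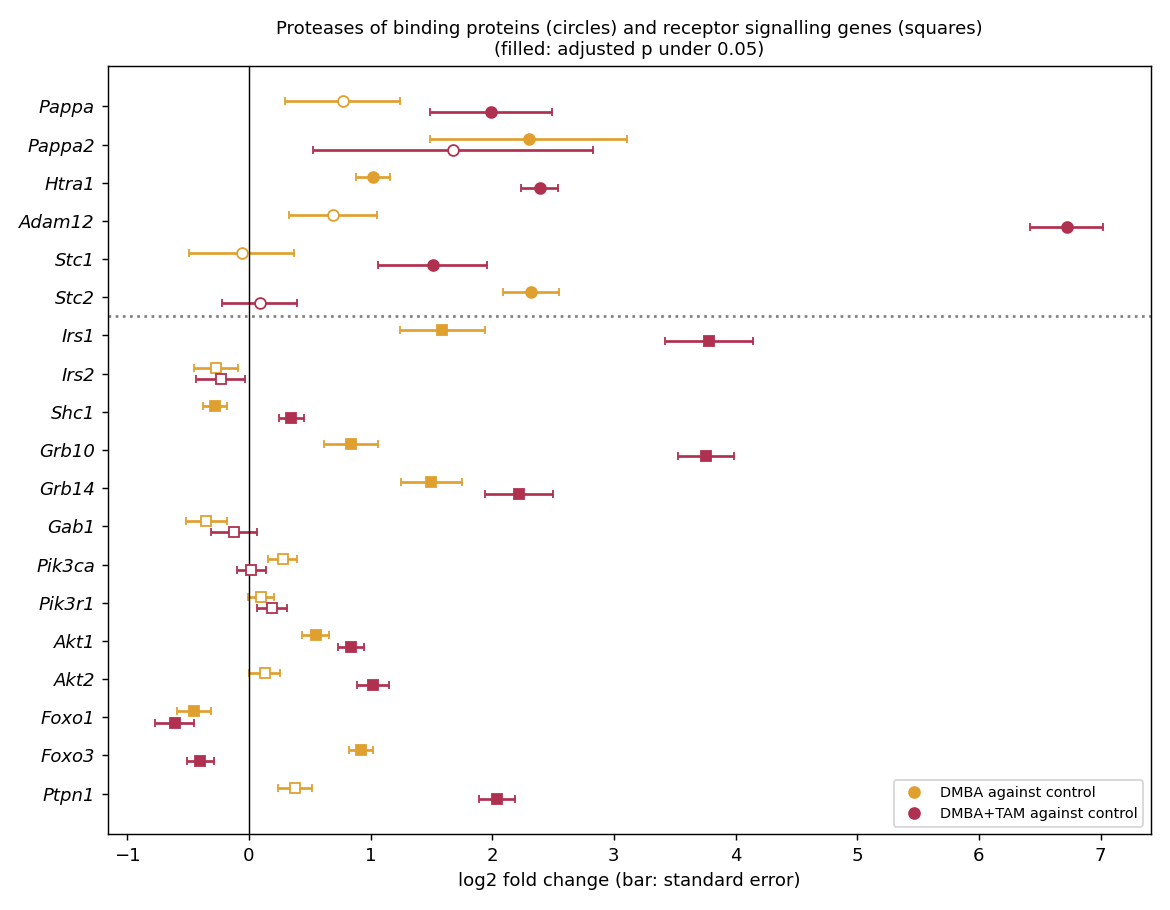
Log2 fold change against control of proteases of binding proteins and their inhibitors (circles) and of receptor signalling genes (squares) in DMBA and DMBA+TAM, with standard errors of the edgeR fit as bars and filled points for an adjusted p under 0.05. Adam12 lies farthest out at 6.72 in DMBA+TAM and 0.69 in DMBA, and Stc2 is the reverse at 0.09 and 2.32.

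Among related carriers and receptors, the insulin receptor gene Insr was at 59.1 and 54.4 normalized CPM in control and rose in DMBA (0.97 ± 0.12 on the log2 scale, edgeR adjusted p = 0.000142), TAM long (0.98 ± 0.12, 0.000138) and DMBA+TAM (0.66 ± 0.12, 0.00101), and fell in TAM short (-0.42 ± 0.12, 0.0466, but -0.33 and not called with library size scaling). Its relative Insrr had 34 to 69 counts in the L libraries, 1 to 5 in the S libraries and 0 in both DMBA+TAM libraries. Igfals, whose product stabilises the circulating IGF complex, had 10 and 6 counts in DMBA+TAM and at most 2 in any other library. Igfbp1, Igfbpl1, Ins1 and Ins2 had at most 2 counts in any library and were not tested.

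Genes tied to the Igf2 and Igf2r loci were also read. H19, the imprinted transcript beside Igf2, had 2 to 8 counts in the other 8 libraries and 26 and 158 in DMBA+TAM, a rise of 6.63 ± 0.82 on the log2 scale (edgeR adjusted p = 5.97e-05). The 2 DMBA+TAM libraries differed widely, at 13.7 and 69.5 normalized CPM, as did the sum of 5 skeletal muscle markers, at 4.74 and 6843, whose part was not tested. Airn, which overlaps Igf2r in antisense, was at 1.24 and 1.20 normalized CPM in control, 5.35 and 9.30 in DMBA, 3.36 and 4.71 in TAM long and 6.85 and 10.1 in DMBA+TAM. Airn rose with DMBA (2.56 ± 0.43, adjusted p = 0.000918), with TAM long (1.71 ± 0.44, 0.0100) and with DMBA+TAM (2.79 ± 0.47, 0.000504). As the strand setting of the counting is not given, counts of Airn may hold reads from unspliced Igf2r. Igf2os had 20 and 7 counts in control and 0 in the other 8 libraries, and did not pass the filter. Of genes for proteins that bind Igf2 mRNA, Igf2bp2 was at 43.3 and 41.1 normalized CPM in control and 7.90 and 6.59 in DMBA+TAM, a change of -2.55 ± 0.28 (2.24e-05). Igf2bp1 had 18 to 41 counts in the L libraries and 0 in the other 6. Igf2bp3 was not called against control in any group (adjusted p from 0.0560 to 0.751).

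The genes closest in pattern to each member were found by the root mean square difference of centred log2 levels over the 10 libraries, over the 11043 genes whose mean count was 50 or more. Igf1 was closest to Kirrel (0.13), Mgp (0.16) and Scn7a (0.17), Igfbp7 to Ppic (0.13), P3h1 (0.15) and the matrix proteoglycan gene Bgn (0.22). Igfbp4 was closest to the membrane metalloproteinase gene Mmp14 (0.22), Efemp1 and Pcolce (both 0.25), and Igfbp5 to the collagen genes Col15a1 (0.24) and Col5a2 (0.28) and to Mrc2 (0.28). Igfbp3 was closest to Rarres2 (0.19), Hfe (0.22) and Adgrf5 (0.23), and Igfbp6 to Rab11fip5 (0.40), Adam23 (0.42) and Galnt16 (0.45). Igf1r was closest to Arhgef17 (0.17), Itgb3 (0.18) and Npr2 (0.22), and Igf2r to Ly6e (0.16), Lyplal1 (0.22) and Gtf3c1 (0.25). The closest genes were Prr5l, Agpat3 (both 0.48) and Fbln1 (0.50) for Igf2, and Wfdc18 (0.91), Cbs (0.97) and Rgs17 (1.13) for Igfbp2. The distance grows with how much a gene varies, and the SD over the 10 libraries was 0.99 for Igf2, 3.10 for Igfbp2 and 0.44 for Igf2r, so distances are not compared between members. Within the 10 genes the closest pairs were Igf1 with Igfbp7 and Igfbp4 with Igfbp7 (both 0.37), then Igf1 with Igfbp3 and Igfbp5 with Igfbp7 (both 0.39). The libraries share depth and marker differences between groups, so these distances describe shared steps between groups and carry no test.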

How the data were processed

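Each library was poly-T selected mRNA made into a library with the NEBNext Ultra kit. Per the submitters' processing notes and the study's methods, the authors mapped reads to GRCm38.p6 with TopHat 2.0.12, obtained a read count per gene with HTSeq 0.6.1 and computed FPKM. The deposited table holds the counts and FPKM of all 10 libraries beside columns of the authors' own comparisons, which were not used. The gene lengths implied by the deposited FPKM were shorter than the listed lengths for many genes (equal within 0.1% for 47.0% of genes), so levels were compared between genes per kb of listed length. No per-sample column was left unassigned.

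For tests, genes were filtered by filterByExpr and TMM scaled (factors 0.832 to 1.192), and the quasi-likelihood model of edgeR 4.0.16 (R 4.3.3) was fitted over all 10 libraries with a mean per group. The p-values of the 16179 genes were adjusted by Benjamini-Hochberg, and those under 0.05 were called. On simulated counts with 200 of 15587 genes changed 4-fold in DMBA+TAM, the test against control recovered 77% of them, and 4.94% of its calls were false. In the data 64.3% of genes were called in that comparison, so the simulation does not check a change of that breadth. An exact permutation test of 2 against 2 libraries cannot go below p = 0.333 and was not used. Replicate numbers were not treated as pairs, since deviations of same-numbered libraries correlated at r from -0.04 to 0.23.

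Alternatives were DESeq2 1.42.0, library size scaling, no filter, only the compared groups, a replicate block, a minimum change of 1 on the log2 scale, limma 3.58.1 on log2(FPKM + 1) and log2(FPKM + 0.1), thinning to 1592366 counts, TAM short in place of TAM long in the interaction, and leaving out each library, where the lone library is assumed to vary like the other groups. The text covers the 10 members, 5 pathway lists, 11 cell type marker lists by their sums, and the 3 genes most like each member. Some genes of the signalling list are not reported here. Fibroblast markers without 3 collagen genes and ratios from FPKM were added after seeing the data. Members and lists were chosen with earlier results of these data known. Promoters are RefSeq sequences (GRCm38.p6), found for all 10 members. Gene positions are those of the deposited table, and exon overlaps come from GENCODE M21.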

Additional observations from a re-analysis of the deposited data

Results flagged for a closer look

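For 8 of the 10 genes the change with both agents differed from the sum of the changes with DMBA and TAM long alone, by the test of the interaction itself in edgeR (adjusted p from 2.78e-07 to 0.0305). On the log2 scale the difference was 3.98 for Igfbp5, 3.29 for Igfbp7, 2.83 for Igfbp4, 2.35 for Igf1, 2.29 for Igf2, 2.13 for Igfbp3 and 1.34 for Igfbp6, all above the sum. For Igfbp2 it was -8.88, below the sum, with a range of -16.25 (without DMBA+TAM replicate 1) to -3.08 (TAM short in place of TAM long). For Igf2 it was not called without control replicate 1 (1.98), TAM long replicate 2 (2.08) or DMBA+TAM replicate 2 (2.15). For Igfbp6 it was 0.53 and not called without control replicate 2 and 3.52 with TAM short, and was not called in 4 of the other leave-one-out fits (1.15 to 1.42). Of all genes, 48.2% were called in this comparison. Summed epithelial markers fell to 33.2 and 22.4 normalized CPM in DMBA+TAM, fibroblast markers were at 32680 and 33502, and DMBA and TAM long are both L libraries while control is S. L against S thus enters the sum through both single changes and cannot be told apart from an interaction of the agents. The part of the markers in the interaction was not tested.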

How the results depend on the processing

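A minimum change of 1 on the log2 scale left 4 of the 10 genes called for DMBA and 3 for TAM long against control, beside 27.2% and 26.1% of all genes. For TAM short against control 5 were called with no filter on low counts and 1 after thinning; the cause was not tested. Leaving out each library in turn gave 7 to 9 called genes for DMBA, 3 to 6 for TAM long, 1 to 2 for TAM short and 7 to 8 for DMBA+TAM, all against control, with the 3 of TAM long coming without control replicate 2. DMBA+TAM gave 7 to 9 against DMBA, 8 against TAM long and 7 to 8 against TAM short, and the interaction 6 to 8. Replicate number was also fitted as a block, though the labels do not say that equal numbers mark a pair. The counts against control were then 10, 8, 3 and 7, beside 47.2%, 45.4%, 14.4% and 63.2% of all genes. For DMBA+TAM against DMBA, TAM long and TAM short they were 10, 9 and 9, and for the interaction 8, beside 54.0%, 54.1%, 62.1% and 47.0%. The gene added for DMBA and for TAM long was Igf2, called lower. For DMBA+TAM against DMBA the added genes included Igf2r, which was lower there under every alternative (-0.93 to -0.07).

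Signs turned only where values were small or counts few. For Igf2r in TAM long against control the log2 change was 0.16 with library size scaling and 0.15 in both limma fits. For Igf1 in TAM short it was 0.11 after thinning and for Igfbp6 in TAM short -0.93 to 0.39 as libraries were left out, highest without control replicate 2. For Igf2 in DMBA+TAM against control it was 0.37 with library size scaling, 0.30 and 0.38 in limma with FPKM + 1 and + 0.1, and -0.39 to 0.15 as libraries were left out, highest without control replicate 1. For Igfbp2 in DMBA+TAM it was -0.86 against control in limma with + 0.1, -0.06 without control replicate 2 and -6.99 without DMBA+TAM replicate 1, up to 1.52 without DMBA+TAM replicate 2. Against TAM short it was -0.01 in that limma fit and -5.90 to 2.61 as libraries were left out, lowest without DMBA+TAM replicate 1. With TAM short in place of TAM long the interaction of Igf1r was called at 1.52. For the interaction Igf1r was at -0.36 after thinning and at -0.10 to 0.45 as libraries were left out, and Igf2r at -0.75 (called, without DMBA replicate 1) to 0.09, highest without DMBA replicate 2. The causes were not tested. Over single genes, 660 of 729 other alternative values and 313 of 360 with a library left out kept direction and side of the threshold. Depth limits Igf2 and Igfbp2 in DMBA+TAM, where 3 counts equal 1.58 and 1.32 normalized CPM.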

Other observations

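The order of the 10 genes within a library depends on the length used. The FPKM values imply a length of 2549 bp for Igf2r against 8887 bp listed, 1964 against 7052 bp for Igf1, 1183 against 3831 bp for Igfbp4 and 2000 against 4722 bp for Igf2, while Igf1r and Igfbp6 have the same length in both. Over all genes the median share of the listed length was 0.632. By the mean of the authors' FPKM, Igf2r stood above Igfbp7 in control (44.4 against 39.3) and TAM short (38.2 against 30.7). Igfbp4 stood above Igfbp7 in TAM short (34.2 against 30.7), TAM long (96.7 against 77.3) and DMBA+TAM (1922 against 1636). Igfbp7 had the highest mean of the 10 in DMBA alone (94.0, with Igf2r at 91.9). In DMBA replicate 2, however, Igf2r was at 113 and Igfbp4 at 86.5 against 75.2 for Igfbp7. The share of Igfbp7 in the summed FPKM of a library was 19.5% to 40.0%. Per kb of listed length Igfbp7 was above both. Fold changes of 1 gene between groups do not depend on this length.

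Lgr5, whose promoter drives the Cre, was at 7.79 and 5.17 normalized CPM in control, 5.52 and 6.42 in TAM short, 2.41 and 3.03 in DMBA, 2.41 and 3.92 in TAM long, and 21.1 and 11.4 in DMBA+TAM, with 26 to 69 counts in any library. Against control it was higher in DMBA+TAM by 1.31 ± 0.38 on the log2 scale (edgeR adjusted p = 0.0117), and lower in DMBA, at -1.26 ± 0.38 (0.0211), and in TAM long, at -1.04 ± 0.37 (0.0433), beside the epithelial markers given above.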
